A study of Sus scrofa with 70 samples.

Results

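The testis and the epididymis of the boar were compared by the RNA of their genes, in 6 testis and 6 epididymis RNA-seq libraries out of 30 RNA-seq libraries and 70 samples in the whole series. The members are all libraries of these 2 glands, chosen by their labels, and the transcripts of the deposited abundance table were summed to 35552 genes by the gene identifier of the deposited annotation. Of these, 18859 genes reached at least 1 TPM (a transcript's share of the library, corrected for its length and scaled to the same total in each library) in at least 3 of the 12 libraries and were tested, while 16693 did not reach it.

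Each gland was sampled in BMI, the Banna mini-pig inbred line, and in DSE, the Diannan small-ear pig from which BMI was derived by inbreeding, with 3 libraries for each breed and gland. All boars were 12 months old and carried no allele or treatment named in the labels. Nothing states that the 3 libraries of a group came from different boars, so p-values measure the spread between these libraries only. The labels do not say whether the epididymis tissue came from the head, the body or the tail of the duct. The labels state that ribosomal RNA was depleted, whereas the study's methods describe capture by poly-T, and neither states the strand.

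The testis makes sperm in seminiferous tubules, where germ cells divide by meiosis, replace their histones by transition proteins and protamines, and grow a flagellum and an acrosome. Sertoli cells nurse the germ cells, and Leydig cells between the tubules make androgens and the hormone INSL3. Sperm then pass through the epididymis, a long duct whose epithelium secretes proteins that coat them and protect them from microbes and oxidation, and whose wall holds smooth muscle that moves them on. RNA of sperm in the lumen can be part of an epididymis sample, as RNA of stroma and blood vessels is part of both glands.

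The sequences before the start sites of 4 genes are shown because PRM1, INSL3 and EPPIN are marker genes of spermatids, Leydig cells and the duct, and TNP1 is a further abundant spermatid gene. Each has 200 bases that end just before the annotated start of the most abundant transcript of the gene, written 5′ to 3′ on the strand of the gene from RefSeq's assembly Sscrofa11.1. Capitals mark a motif found by search on either strand, TGACGTCA, the cAMP response element (CRE), in TNP1 and AGAACA, a part of the androgen response element, in INSL3 and EPPIN, where it reads on the other strand.
PRM1 (chr3:31860887-31861086, plus strand): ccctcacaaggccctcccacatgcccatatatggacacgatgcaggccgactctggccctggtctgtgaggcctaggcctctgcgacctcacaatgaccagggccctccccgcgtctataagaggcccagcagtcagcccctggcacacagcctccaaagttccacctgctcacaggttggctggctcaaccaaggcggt
TNP1 (chr15:119038106-119038305, minus strand): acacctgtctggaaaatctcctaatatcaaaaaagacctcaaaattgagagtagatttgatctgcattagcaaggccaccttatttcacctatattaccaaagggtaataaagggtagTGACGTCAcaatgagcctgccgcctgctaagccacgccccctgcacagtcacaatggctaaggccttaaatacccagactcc
INSL3 (chr2:59929384-59929583, plus strand): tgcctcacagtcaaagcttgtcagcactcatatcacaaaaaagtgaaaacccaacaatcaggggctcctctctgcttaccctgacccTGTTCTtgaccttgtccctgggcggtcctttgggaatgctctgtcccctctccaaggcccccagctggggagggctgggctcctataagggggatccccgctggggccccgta
EPPIN (chr17:47859366-47859565, minus strand): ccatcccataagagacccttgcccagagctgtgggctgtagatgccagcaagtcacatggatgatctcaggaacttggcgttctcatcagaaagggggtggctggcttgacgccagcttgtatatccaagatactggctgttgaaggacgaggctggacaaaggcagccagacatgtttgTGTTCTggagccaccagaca
The CRE of TNP1 began 82 bases before the start, and the match in INSL3 began 113 bases and that in EPPIN 20 bases before it. In windows of 250 bases before to 50 after the start, TGACGTCA was found in 517 of the 18434 tested genes with such a window (2.80%), in 2.77% of genes higher in testis and in 1.93% of genes higher in epididymis. AGAACA was found in 11.7% of all windows, in 12.7% and in 12.2% in the same order. A part of the X-box bound by RFX factors, GTTGCCATG, was in 1.08% of all windows, in 1.80% of testis-higher and in 0.587% of epididymis-higher genes. CAGTTG, the core bound by MYB factors, was in 10.6%, 13.3% and 9.49% of them. The motifs differ in letters, none contains another, and a match is a description of letters and not a bound site.

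With breed in the model, 5790 of the 18859 genes (30.7%) were higher in testis and 4171 (22.1%) were higher in epididymis by limma, where a call needed an adjusted p (Benjamini-Hochberg) under 0.05 as well as a change of 1 or more on the log2 scale. Fold changes are testis minus epididymis on the scale of log2(TPM + 1), which understates the change of genes with low levels. In 4865 of the testis calls (25.8% of the genes tested) the 6 testis libraries lay above all epididymis libraries, and in 2701 of the epididymis calls (14.3% of the genes tested) the epididymis libraries lay above all testis libraries. The testis side had the wider changes, with a median log2 fold change of 2.29 against -1.69 on the epididymis side. A log2 fold change of at least 5 was reached by 729 genes in testis and by 144 in epididymis. Among genes without an Ensembl model, 693 assembled outside known genes and 393 antisense genes were higher in testis, against 168 and 127 higher in epididymis. Before the filter there were 3955 and 2040 genes of these kinds. Their models came from Iso-seq, with 231413 full-length reads in DSE epididymis and 455023 to 458697 in the other libraries of these glands. The part of this depth in the counts was not tested. The RNA of a cell type in a bulk sample cannot be divided into fewer cells and less RNA per cell.

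Genes higher in testis took 40.9% to 60.6% of all TPM in the testis libraries and 4.92% to 6.66% in the epididymis libraries. Genes higher in epididymis took 50.5% to 58.6% in epididymis and 8.03% to 13.5% in testis. Pearson correlations over the tested genes were 0.882 to 0.987 among testis libraries, 0.837 to 0.968 among epididymis libraries and 0.399 to 0.648 between the glands. DSE testis replicate 2 stood apart, with correlations of 0.882 to 0.927 to the other testis libraries, which were 0.963 to 0.987 among themselves. Every count of list members below was repeated without this library. They stayed within 2 members of those given, and the lists whose counts moved by 2 were the epididymal fluid proteins (15 higher in epididymis in place of 17) and the paralogue pairs (8 in place of 6).

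**Figure D1:**
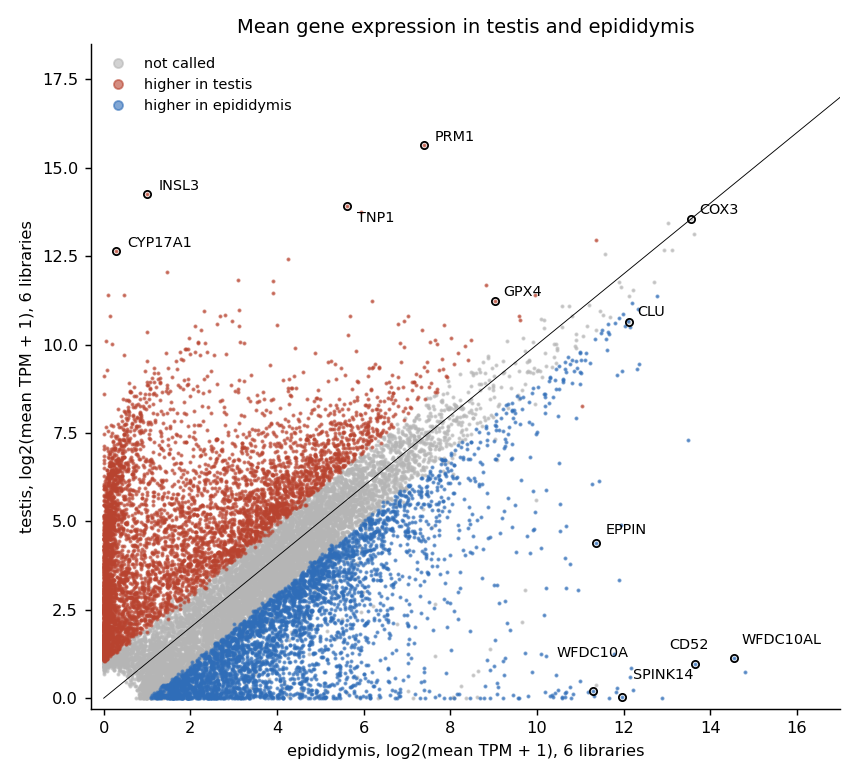
Mean level of each tested gene in 6 testis libraries (vertical axis) and 6 epididymis libraries (horizontal axis), both as log2(mean TPM + 1), with 5790 genes higher in testis, 4171 higher in epididymis and 8898 in neither. The line marks equal levels. PRM1, INSL3 and CYP17A1 lie high on the testis side, WFDC10AL and CD52 far out on the epididymis side, and COX3 on the line.

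The 4 marker genes followed their glands in all 12 libraries. PRM1, the protamine that packs sperm DNA (chromosome 3, 31861087 to 31861510), had 18217, 54343 and 71826 TPM as lowest, median and highest value in testis, against 1.06, 63.7 and 744 TPM in epididymis. Its log2 fold change was 9.96 ± 1.0 (SE, adjusted p 1.45e-06 by limma). INSL3, the Leydig cell hormone that brings the testis down into the scrotum (chromosome 2, 59929583 to 59934916), had 11448, 14411 and 42359 TPM in testis and 0, 0.692 and 2.91 TPM in epididymis, a log2 fold change of 13.26 ± 0.41 (adjusted p 1.37e-10 by limma). The groups of both genes were far apart, and the lowest PRM1 and the highest INSL3 value of testis belonged to the same library, DSE testis replicate 2. EPPIN, a sperm coat protease inhibitor (chromosome 17, 47851802 to 47859446), had 870, 1851 and 6966 TPM in epididymis and 10.7, 19.2 and 27.8 TPM in testis, a log2 fold change of -6.71 ± 0.43 (adjusted p 1.90e-08 by limma). WFDC10A, a member of the same inhibitor family, had 928, 2180 and 5400 TPM in epididymis and 0, 0.163 and 0.228 TPM in testis, a log2 fold change of -10.82 ± 0.35 (adjusted p 2.39e-10 by limma).

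**Figure D2:**
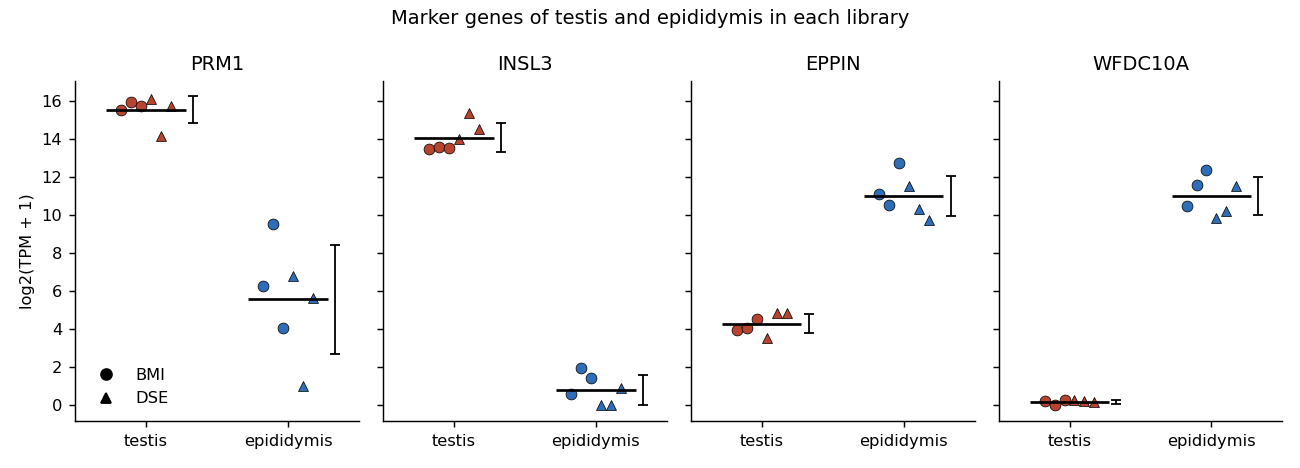
Levels of PRM1, INSL3, EPPIN and WFDC10A in each of the 12 libraries as log2(TPM + 1), with circles for BMI and triangles for DSE. Lines are means and bars are 1 SD over 6 libraries. The glands do not overlap for any of the 4 genes, and PRM1 spread from 1.06 to 744 TPM among the epididymis libraries.

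Among the premeiotic genes, 4 of 10 tested members were higher in testis, 1 was higher in epididymis and 5 were not called. Of all genes tested, 30.7% were higher in testis and 22.1% in epididymis, so the count hardly sets this list apart. The median log2 fold change was 0.55 against 0.03 over all genes. DAZL, an RNA-binding protein of germ cells, had 29.8, 65.1 and 86.1 TPM in testis and at most 0.173 TPM in epididymis (log2 fold change 5.80 ± 0.25). STRA8, which is needed for entry into meiosis, had 3.82, 14.6 and 22.7 TPM against 0, 0.195 and 1.24 TPM (3.31 ± 0.37). UCHL1, a ubiquitin hydrolase of spermatogonia and nerve cells, had 14.5, 17 and 40.5 TPM in testis and 9.51, 13.8 and 49.6 TPM in epididymis, with overlapping groups. The other uncalled members were ZBTB16, KIT, NANOS3 and SALL4, and GFRA1, a receptor of stem cell growth factors, was the member higher in epididymis at levels of 1.16 to 5.92 TPM. ZBTB16 was called higher in epididymis when BMI epididymis replicate 3 (log2 fold change -1.22) or DSE epididymis replicate 1 (-1.18) was left out.

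Of the meiosis genes, 16 of 20 were higher in testis and the other 4 were not called, a median log2 fold change of 3.93. SYCE3, a part of the synaptonemal complex that joins paired chromosomes, had 186, 612 and 843 TPM in testis and 0, 0.409 and 4.41 TPM in epididymis (log2 fold change 8.17 ± 0.48, adjusted p 9.52e-09 by limma). SYCP3, the axial element, and STAG3, the meiotic cohesin, had medians of 142 and 154 TPM in testis and of 0.0364 and 0.181 TPM in epididymis. The uncalled members were MSH4, MSH5, MLH3 and MEI1, and without DSE testis replicate 2 the number called was 17. The gene model labelled MSH4 held 7 transcripts on chromosome 6 of which 5 lay on the neighbouring gene RABGGTB and carried a mean of 29.4 TPM in testis and 39.4 TPM in epididymis. The transcript that lay on RefSeq's MSH4 alone had 2.62 TPM in testis and 0.0547 TPM in epididymis, so the gene sum describes RABGGTB, an enzyme of protein prenylation.

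All 15 tested genes of the piRNA pathway, which silences transposons in germ cells, were higher in testis with a median log2 fold change of 4.09. GTSF1 had 174, 495 and 661 TPM in testis and 0.268, 1.46 and 4.23 TPM in epididymis, the helicase DDX4 67.7, 198 and 243 TPM against 0.073, 0.161 and 1.17 TPM. MAEL and PLD6, which act in the processing of piRNAs, had medians of 170 and 127 TPM in testis and stayed at or below 2.08 TPM in every epididymis library. TDRD7 had the highest level in epididymis of the 5 named members, 4.72 to 12.0 TPM.

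Among transcription and translation regulators of spermatids, 8 of 9 were higher in testis and CREM was higher in epididymis. RFX2, a factor of ciliary and flagellar genes, had 54.4, 174 and 216 TPM in testis and 1.16, 2.58 and 8.46 TPM in epididymis (log2 fold change 5.27 ± 0.36). BOLL, a translation factor of meiotic germ cells, had 22.3, 64.7 and 73.8 TPM in testis and at most 0.0236 TPM in epididymis. FHL5, a coactivator of CREM, had 18.7, 86.5 and 124 TPM against 0.990, 5.46 and 20.1 TPM, so that its groups overlapped through DSE testis replicate 2. CREM had 2.04, 4.96 and 6.68 TPM in testis and 5.53, 13.6 and 27.6 TPM in epididymis (log2 fold change -1.36 ± 0.36, adjusted p 0.00437 by limma). The name CREM was given to this gene by overlap with RefSeq exons.

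The genes of spermatid chromatin had the highest median log2 fold change of all lists, 8.76, and all 9 tested members were higher in testis with no overlap between the glands. TNP1, a transition protein that replaces histones, had 4166, 15834 and 26595 TPM in testis and 0, 13.0 and 156 TPM in epididymis (log2 fold change 9.93 ± 1.05, adjusted p 2.53e-06 by limma). PRM2 and TNP2, which lie beside PRM1 on chromosome 3, had medians of 5707 and 3430 TPM in testis and of 3.09 and 3.20 TPM in epididymis. HMGB4, a chromatin protein of spermatids, had 368, 1516 and 1889 TPM against 0, 1.66 and 15.7 TPM. The linker histone H1-7 and the bromodomain protein BRDT had medians of 480 and 185 TPM in testis. The remodeller CHD5 had 33, 125 and 157 TPM against 1.42, 5.61 and 9.08 TPM (4.18 ± 0.41). H1-6, a linker histone with a low level, had 1.19 to 8.78 TPM in testis and was listed at 0 in all epididymis libraries.

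All 27 tested flagellum genes were higher in testis with no overlap, and their median log2 fold change was 6.01. OAZ3, an antizyme of late spermatids, had 630, 2328 and 2451 TPM in testis and 1.09, 2.55 and 27.5 TPM in epididymis (log2 fold change 8.44 ± 0.57). ODF1, an outer dense fibre protein, had 628, 2018 and 2203 TPM against 0, 2.12 and 27.0 TPM (8.94 ± 0.61, adjusted p 3.54e-08 by limma). ODF2, which also forms part of centrosomes in other cells, had 458, 1697 and 1988 TPM against 9.19, 11.9 and 30.9 TPM, the highest epididymis level of the 5 named flagellum genes. SMCP, a protein of the mitochondrial sheath, and SPATA3 had medians of 938 and 1006 TPM in testis and stayed at or below 12.4 TPM in epididymis. Of 9 tested genes known from ciliated cells, 7 were higher in testis, CFAP126 with a median of 108 TPM against 0 TPM, and 1 was higher in epididymis, TPPP3, with 2.39 to 88.4 TPM.

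Acrosome and gamete fusion genes were higher in testis in 22 of 23 tested members, with a median log2 fold change of 5.59. LLCFC1, a protein of sperm and egg fusion, had 218, 857 and 907 TPM in testis and 0, 1.07 and 9.67 TPM in epididymis. IZUMO4, of the IZUMO family of fusion proteins, had 292, 1084 and 1156 TPM against 13.6, 17.6 and 33.5 TPM, and ACRBP, which keeps proacrosin inactive, had 239, 818 and 962 TPM against 1.88, 37.9 and 79.8 TPM. SPACA6 was the uncalled member, with 1.19 to 5.26 TPM in testis and 3.15 to 8.35 TPM in epididymis. All 14 sperm ion channel and transporter genes were higher in testis with a median log2 fold change of 3.52. EFCAB9, a calcium sensor of the CatSper channel, had 29.2 to 131 TPM in testis and was listed at 0 in all epididymis libraries, whereas CATSPER2, a pore subunit, had 26.5, 74.1 and 79.3 TPM against 8.29, 15.7 and 22.5 TPM (2.03 ± 0.31).

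Metabolic enzymes of germ cells were higher in testis in 9 of 12 tested members. GPX4, the selenoenzyme that becomes a structural protein of the sperm midpiece, had 1048, 2751 and 2840 TPM in testis and 294, 516 and 712 TPM in epididymis (log2 fold change 2.19 ± 0.24). GK2, a glycerol kinase of spermatids, had 118, 449 and 526 TPM against 0, 0.251 and 2 TPM. ALDOA, LDHA and PGK1, the forms used by most cells, were not called, and PGK1 was called higher in epididymis without DSE testis replicate 2 (log2 fold change -1.11), without DSE epididymis replicate 1 (-1.06) or within BMI (-1.36).

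The Leydig cell side was led by single genes at very high levels, and 11 of 13 tested genes of steroid synthesis were higher in testis with a median log2 fold change of 5.84. CYP17A1, which makes androgens from progestagens, had 3780, 5262 and 13936 TPM in testis and at most 0.463 TPM in epididymis (log2 fold change 12.24 ± 0.28, adjusted p 1.80e-11 by limma). STAR, which brings cholesterol into mitochondria, had 1717, 2057 and 5143 TPM against 0.106, 0.400 and 0.710 TPM, and CYP11A1, which cleaves its side chain, 734, 818 and 1900 TPM against 0.0428, 0.134 and 0.302 TPM. CYP19A3, a pig aromatase, had 1261, 2109 and 6178 TPM against 0, 0.0278 and 0.2 TPM (11.12 ± 0.29). Reads of CYP19A3 can be shared with its close copies, of which CYP19A1 had at most 0.0965 TPM in any library. SULT1C3, a sulfotransferase, had 2402, 3296 and 7153 TPM against 0.167, 2.12 and 2.93 TPM (10.59 ± 0.36). DHRS4, a short-chain dehydrogenase of a family with close copies, had 8015, 11723 and 26280 TPM against 35.4, 65.4 and 79.4 TPM. HSD3B1 and SULT1E1 were the 2 members higher in epididymis, with medians of 134 and 46.5 TPM there against 7.65 and 0.150 TPM in testis, where HSD3B1 was named by overlap with RefSeq exons and its close copies were not separated.

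The highest values of CYP17A1, STAR, CYP11A1, CYP19A3, SULT1C3 and DHRS4 all belonged to DSE testis replicate 2. The summed Leydig cell genes gave 68123 TPM in that library and 20541 to 34439 TPM in the other testis libraries, while summed spermatid chromatin genes gave 25248 TPM there and 75611 to 117015 TPM in the others. FTL, the ferritin light chain, likewise had 17263 TPM there and 4930 to 8175 TPM elsewhere in testis. Part of the difference between testis libraries therefore ran along these 2 groups of genes, and what lay behind it was not tested.

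Sertoli cell genes were higher in testis in 7 of 10 tested members with a median log2 fold change of 1.72, and in 6 of 10 without DSE testis replicate 2. CLDN11, a tight junction protein of the barrier between blood and testis, had 122, 131 and 377 TPM in testis and 20.3, 32.8 and 38 TPM in epididymis (log2 fold change 2.39 ± 0.24). INHA, the inhibin alpha subunit, had 39.2, 88.9 and 169 TPM against 0.184, 0.618 and 1.33 TPM, and GATA4 had 27.1 to 53.7 TPM against at most 0.182 TPM. SOX9 was not called, with 12.0, 15.9 and 37.3 TPM in testis and 4.18, 10.9 and 27.4 TPM in epididymis, nor was AMH, which falls after puberty in males and had 0.642 to 2.85 TPM in testis. SOX8 was the member higher in epididymis, at 0.433 to 16.7 TPM.

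**Figure D3:**
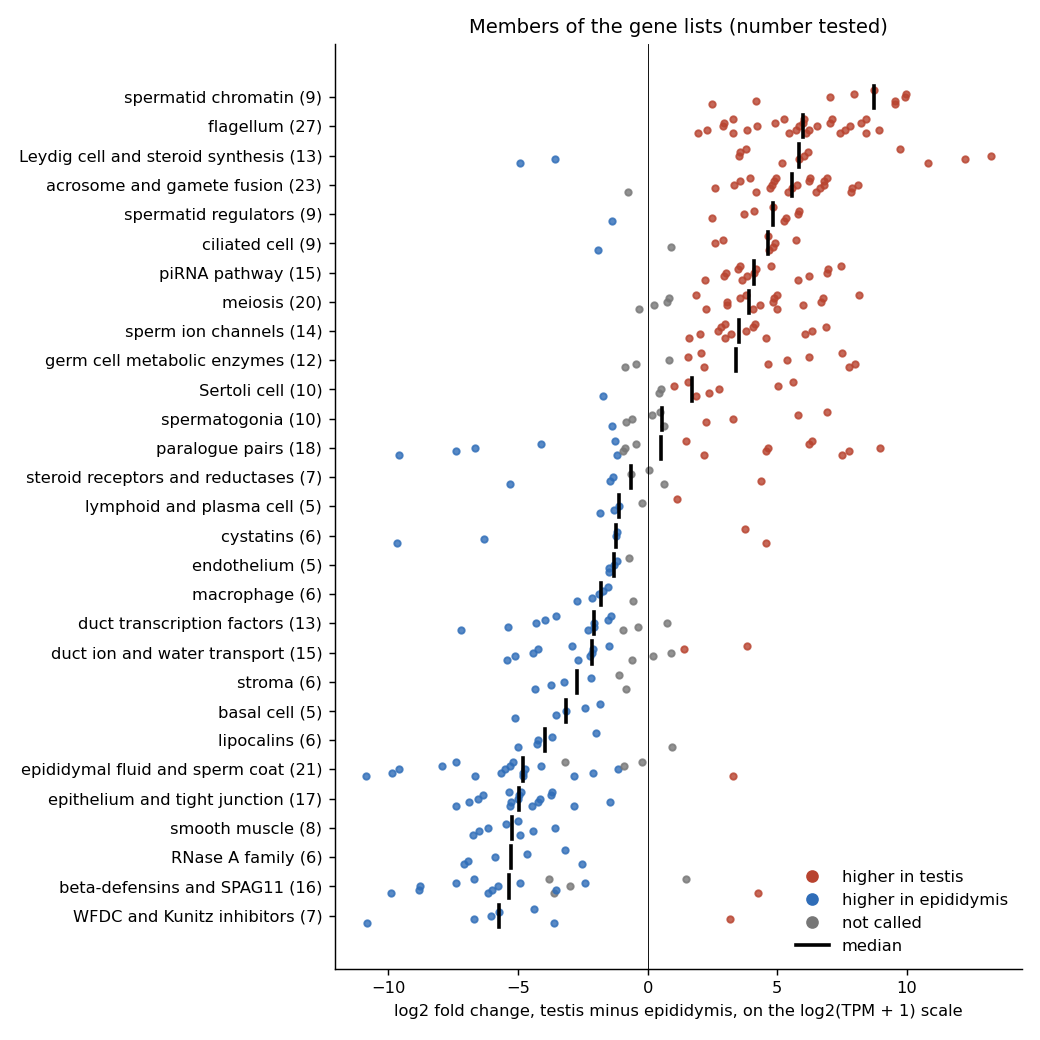
Log2 fold change of every tested member of 29 gene lists, testis minus epididymis on the log2(TPM + 1) scale, with the number tested in parentheses and a bar at the median. Spermatid chromatin (median 8.76) lies at the testis end and the WFDC and Kunitz inhibitors (median -5.72) lie at the epididymis end, and single members of several lists lie on the side opposite to their median.

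In the epididymis, secreted protease inhibitors were among the genes with the widest changes. WFDC10AL had 962, 19993 and 62673 TPM in epididymis and was listed at 0 in 4 of 6 testis libraries, with 6.89 TPM as the highest (log2 fold change -13.27 ± 0.85, adjusted p 1.88e-08 by limma). Among 7 tested WFDC and Kunitz inhibitors, 6 were higher in epididymis and WFDC3 was higher in testis, with 27.8, 75.0 and 101 TPM there and 3.83, 5.41 and 13.7 TPM in epididymis. WFDC11 had 44.1, 58.2 and 130 TPM in epididymis and was listed at 0 in all testis libraries. WFDC2, a marker of duct epithelium also known as HE4, had 67.9, 111 and 345 TPM against 0, 0.354 and 9.46 TPM. SPINK14, of another inhibitor family, had 386, 3057 and 11184 TPM in epididymis and was at 0 in 5 testis libraries and at 0.180 TPM in the other (-11.28 ± 0.57).

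The WFDC genes named here and EPPIN lie together on chromosome 17. Between the start of WFDC2 at 47816452 and the end of WFDC3 at 47994901, 12 of 13 tested genes were higher in epididymis and 1, WFDC3, was higher in testis. Over all genes tested, 22.1% were higher in epididymis. Of the 13 genes 6 have no symbol, and 6 were listed at 0 in all testis libraries. Models at 47891154 to 47897491 (minus strand), 47893770 to 47897420 and 47893770 to 47897511 (both plus strand) lie within the model of WFDC10A. They have no symbol and were at 0 in all testis libraries, so the 13 genes are not separate loci. The deposited model of WFDC10A (47888613 to 47901430, plus strand) overlaps that of WFDC10AL (47886034 to 47888974, minus strand), and without strand the reads of the overlap cannot be told apart. Outside the interval, genes of both sides and uncalled genes were found, and those given here were chosen after their values were seen. TP53TG5 (47698356 to 47703212) and SPATA25 (48077667 to 48079619) were higher in testis with means of 156 and 24.2 TPM against 0.272 and 0.103 TPM. SLPI, SPAI-2, MATN4, DBNDD2 and TNNC2 were higher in epididymis (log2 fold change -3.60, -2.04, -2.09, -1.25 and -2.85). The neighbours PIGT and DNTTIP1 were not called.

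Lipocalins, which carry small hydrophobic molecules, were higher in epididymis in 5 of 6 tested members. PTGDS, the prostaglandin D synthase, was expressed in both glands, with 875, 2039 and 3415 TPM in epididymis and 380, 458 and 602 TPM in testis (log2 fold change -2.0 ± 0.28, adjusted p 3.62e-05 by limma). LCN8 had 1.51, 5.44 and 9677 TPM in epididymis and at most 0.309 TPM in testis (-4.28 ± 1.45, adjusted p 0.0188), and LCN6 had 0.198, 33.5 and 6126 TPM against 0.425, 0.898 and 3.72 TPM. The call of LCN6 was lost when BMI testis replicate 1, 2 or 3 or DSE epididymis replicate 1 was left out (log2 fold change -3.91, -4.10, -4.00 and -3.41, adjusted p 0.0565 to 0.0724 by limma) and without the filter on low values (-4.21, adjusted p 0.0713). LCN15, with 5.36 to 9.70 TPM in testis and 1.33 to 9.52 TPM in epididymis, was not called in either direction, and it was called higher in testis without DSE testis replicate 2 (adjusted p 0.0145 by limma), BMI testis replicate 1 (0.0158), BMI epididymis replicate 2 (0.00223) or DSE epididymis replicate 1 (0.0126), within DSE (0.0457), with size factors (0.0117) or with a pseudocount of 0.1 TPM (0.0142).

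All 6 tested genes of the RNase A family were higher in epididymis with no overlap, a median log2 fold change of -5.27. They lie with EDDM3B, an epididymal secretory protein of the same cluster, between 78213005 and 78394137 on chromosome 7. ANG, angiogenin, had 529, 1040 and 2048 TPM in epididymis and 5.41, 16.9 and 32.2 TPM in testis (-5.88 ± 0.38), and RNASE12 had 246, 1076 and 2375 TPM against 1.74, 8.46 and 10.2 TPM. RNASE10 had 3.09, 13.7 and 10294 TPM against 0, 0.296 and 0.549 TPM, and RNASE9, with 4.29, 62.6 and 6169 TPM, was listed at 0 in testis. EDDM3B itself had 602, 1981 and 6389 TPM in epididymis and at most 0.137 TPM in testis (-10.92 ± 0.38). The models of ANG and RNASE4 overlap on the minus strand and those of RNASE12 and RNASE9 on the plus strand, so their reads can be exchanged within each pair.

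Of 6 tested cystatins, inhibitors of cysteine proteases, 4 were higher in epididymis and 2 in testis. CST6 had 631, 1164 and 2251 TPM in epididymis and 0, 0.492 and 1.28 TPM in testis (log2 fold change -9.67 ± 0.31, adjusted p 2.29e-10 by limma), and CST11 had 0.481, 363 and 8045 TPM against 0, 0.111 and 0.408 TPM. CST8 and CSTL1, which lie in the same cluster on chromosome 17, were higher in testis, CST8 with 7.03, 32.7 and 73.3 TPM against 0, 0.0696 and 1.83 TPM. CST3, the cystatin of most body fluids, was abundant in both glands, with 713, 1308 and 2010 TPM in epididymis and 442, 519 and 1273 TPM in testis (-1.18 ± 0.25), a call lost within DSE (-1.02, adjusted p 0.0673 by limma).

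Beta-defensins, antimicrobial peptides that also coat sperm, were higher in epididymis in 11 of 16 tested genes, counting SPAG11, and higher in testis in 1, DEFB123, with 20.7 to 82.2 TPM there and at most 3.33 TPM in epididymis. DEFB135 had 1985, 2773 and 8300 TPM in epididymis and 0, 10.5 and 17.1 TPM in testis (log2 fold change -8.80 ± 0.56), and DEFB115 had 337, 971 and 3335 TPM against at most 0.420 TPM (-9.89 ± 0.38, adjusted p 7.20e-10 by limma). DEFB119 was not called and was present in all 12 libraries, with 202, 281 and 451 TPM in testis and 21.8, 47.8 and 905 TPM in epididymis. The other uncalled members were DEFB114, DEFB125 and SPAG11B, and SPAG11B had 3805 TPM in BMI epididymis replicate 2, 969 TPM in DSE epididymis replicate 1 and at most 26.9 TPM in the other epididymis libraries.

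Other proteins of epididymal fluid and the sperm coat were higher in epididymis in 17 of 21 tested members, and GPX3 was higher in testis, with 311, 878 and 2166 TPM there against 15.9, 77.6 and 308 TPM. CD52, a glycopeptide that is transferred to sperm, had 7.03, 8680 and 41561 TPM in epididymis and 0.172, 0.275 and 4.43 TPM in testis (log2 fold change -10.86 ± 1.57, adjusted p 4.14e-05 by limma). NPC2, a cholesterol carrier of epididymal fluid, had 300, 8373 and 32204 TPM against 83.2, 120 and 349 TPM, so its groups overlapped in 1 library each. EDDM13 had 7.42, 580 and 24703 TPM in epididymis and at most 0.984 TPM in testis. CLU, clusterin, was not called (adjusted p 0.814 by limma) and had 945, 1187 and 3558 TPM in testis and 288, 1454 and 19446 TPM in epididymis. ELSPBP1 and AKR1B1 were not called either.

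The duct epithelium itself was seen in all epididymis libraries, and all 17 tested genes of epithelium and tight junctions were higher there with a median log2 fold change of -4.95. CLDN7, a claudin, had 396, 621 and 1098 TPM in epididymis and 1.82, 2.65 and 3.90 TPM in testis (-7.39 ± 0.27, adjusted p 6.05e-10 by limma). EPCAM, an adhesion molecule, had 340, 445 and 761 TPM against 6.24, 26.1 and 32.0 TPM, and the keratins KRT8, KRT7 and KRT19 had medians of 254, 252 and 330 TPM against 5.59, 0.552 and 2.42 TPM. All 5 tested basal cell genes were higher in epididymis, KRT5 with 15.7, 24.1 and 96.8 TPM there and 0 in all testis libraries.

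Among transcription factors of the duct, 10 of 13 were higher in epididymis and 3 were not called. PAX2, which is needed to form the duct, had 106, 184 and 257 TPM in epididymis and 0, 0.0686 and 0.578 TPM in testis (log2 fold change -7.21 ± 0.27), and EMX2, of the same tract, had 37.6, 50.6 and 60.3 TPM against at most 0.470 TPM. HOXA10 and HOXA11 were less even between epididymis libraries, with 0.218 to 70.6 and 0 to 50.3 TPM there and the highest values in DSE epididymis replicate 2.

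Genes of ion and water transport were higher in epididymis in 10 of 15 tested members and higher in testis in 2, CA2 and ATP6V0D2. ATP6V1C2, a proton pump subunit, had 31.9, 56.8 and 93.7 TPM in epididymis and 0, 0.227 and 1.52 TPM in testis (log2 fold change -5.42 ± 0.30), SLC22A5, a carnitine transporter, 19.8, 27.3 and 99.97 TPM against 0.432, 0.927 and 1.26 TPM. SLC26A3, an anion exchanger, had 2.34, 74.1 and 152 TPM against at most 0.526 TPM. CA2, a carbonic anhydrase, had 20.7, 37.0 and 56.1 TPM in testis and 0.541, 1.35 and 3.92 TPM in epididymis. Of 3 markers of acidifying clear cells, ATP6V1B1 and FOXI1 stayed under the filter in both glands, and ATP6V0A4, a proton pump subunit, was higher in epididymis, with 0.946 to 4.34 TPM there and at most 0.0513 TPM in testis (log2 fold change -1.50 ± 0.24). The markers summed to 0.946 to 7.85 TPM in epididymis and 0.0948 to 0.892 TPM in testis. The steroid reductases were divided between the glands. SRD5A1 had 230, 381 and 901 TPM in testis and 10.2, 20.3 and 27.5 TPM in epididymis (4.38 ± 0.35), and SRD5A2, which makes dihydrotestosterone in the male tract, had 10, 36 and 401 TPM in epididymis and at most 0.785 TPM in testis (-5.29 ± 0.73).

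All 8 tested smooth muscle genes were higher in epididymis with no overlap, with a median log2 fold change of -5.23. ACTA2, smooth muscle actin, had 956, 2035 and 4812 TPM in epididymis and 52.6, 58.5 and 93.0 TPM in testis, and DES, desmin, had 270, 1149 and 4324 TPM against 9.83, 13.4 and 22.8 TPM. The deposited model of MYH11, a further member, runs from 7002701 to 8193372 on chromosome 3 and may hold other genes. Of 6 stroma genes 4 were higher in epididymis, such as COL1A1 with 141, 507 and 3427 TPM against 11.7, 28.6 and 38.7 TPM. Of 6 macrophage, 5 endothelium and 5 lymphoid genes tested, 5, 4 and 3 were higher in epididymis, with median log2 fold changes of -1.80, -1.29 and -1.12. CD4, a lymphoid list member, was higher in testis, with 2.67 to 7.35 TPM there and 0.912 to 3.41 TPM in epididymis (log2 fold change 1.13 ± 0.27 SE, adjusted p 0.00215 by limma), a call lost within either breed alone. Many of these calls lay close to the threshold of the test. Without the filter on low values TEK, PECAM1, CDH5 and CD163 lost their calls (adjusted p 0.0509, 0.0753, 0.0729 and 0.075 by limma) at the same log2 fold changes (-1.50, -1.49, -1.18 and -1.54). Within BMI, with 3 libraries for each gland, the calls of the 4 endothelium genes TEK, PECAM1, CDH5 and EMCN were lost (adjusted p 0.186, 0.426, 0.298 and 0.237 by limma), as were those of the macrophage genes CD163 and C1QA and the lymphoid genes PTPRC, CD3E and CD8A. Within DSE the calls of TEK, CDH5, CD163, C1QA, CD68 and PTPRC were lost. Epididymis remained the higher gland for each of these genes in both breeds. Without BMI epididymis replicate 1 the log2 fold changes of the vessel genes PECAM1, CDH5 and EMCN fell below the threshold of 1 in size (-0.97, -0.83 and -0.97). PECAM1 (16.7, 57.0 and 274 TPM against 11.4, 20.8 and 24.5 TPM) lost its call when any of 8 libraries was left out, namely BMI testis replicates 2 and 3, all 3 DSE testis libraries, BMI epididymis replicate 1 and DSE epididymis replicates 2 and 3 (log2 fold change -0.97 to -1.56, adjusted p 0.0528 to 0.0781 by limma). CDH5 lost it in 7 leave-outs, those without BMI epididymis replicate 1, BMI testis replicates 2 and 3, DSE testis replicates 1 and 3 and DSE epididymis replicates 2 and 3 (-0.83 to -1.22, adjusted p 0.0527 to 0.0885 by limma), and TEK without DSE testis replicate 1 or DSE epididymis replicate 2 (-1.37 and -1.23, adjusted p 0.0539 and 0.0558). CD163 lost it without BMI testis replicates 1 or 3, DSE testis replicates 1 or 3, BMI epididymis replicates 1 or 2 or DSE epididymis replicates 2 or 3 (-1.20 to -1.56, adjusted p 0.0528 to 0.08 by limma), and CD8A without BMI epididymis replicate 1 (-0.93) or DSE epididymis replicate 2 (-0.97).

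Some of these products differed by large factors between epididymis libraries. Ratios of the highest to the lowest library were taken over called genes with a mean of at least 100 TPM in their gland. The median ratio was 3.8 in epididymis over 563 such genes and 3.59 in testis over 1035. Within this selected set the glands differed in the most variable genes and little in the median one. Of 563 genes higher in epididymis with a mean of at least 100 TPM there, 139 (24.7%) had a highest library at least 10-fold over the lowest and 51 at least 100-fold. Of 1035 such testis genes, 8 (0.773%) reached 10-fold and 4 reached 100-fold in testis. GPX5, an extracellular glutathione peroxidase, had 8449 TPM in BMI epididymis replicate 2, 928 TPM in DSE epididymis replicate 1, 194 TPM in DSE epididymis replicate 2 and 4.42 to 13.7 TPM in the other 3. LCN8 and RNASE10 were high in BMI epididymis replicate 2 (9677 and 10294 TPM) and at or below 21.2 TPM in the other 5. MAN2B2, a mannosidase, and RNASE9 were high in BMI epididymis replicate 2 (8730 and 6169 TPM) and DSE epididymis replicate 3 (12091 and 4231 TPM), where the others had at most 104 TPM.

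A different set of libraries led for other products. EDDM13 and CST11 had their highest values, 24703 and 8045 TPM, in DSE epididymis replicate 1, where CD52 had 7.03 TPM and DEFB136 0.831 TPM. CD52 was highest in BMI epididymis replicate 3 with 41561 TPM, and it had 2322 to 14960 TPM in the other 4. Smooth muscle genes summed to 25578 TPM in DSE epididymis replicate 2 and 15619 TPM in BMI epididymis replicate 1, against 2449 TPM in BMI epididymis replicate 2 and 4014 to 9199 TPM in the other 3. Each breed held libraries of both kinds, and in fits within a breed, which have 3 libraries for each gland, some calls were lost. Among them within BMI were the calls of GPX5, LCN6, LCN8, RNASE9, RNASE10, CST11 and MAN2B2, and within DSE those of LCN6, LCN10, DEFB129 and MAN2B2, with the direction kept in each. The labels give no region of the duct, so region and library cannot be told apart. Among these 12 libraries, DSE epididymis replicate 1 also had the lowest RNA integrity in the quality table that accompanies the data, and the part of RNA quality in its values was not tested.

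**Figure D4:**
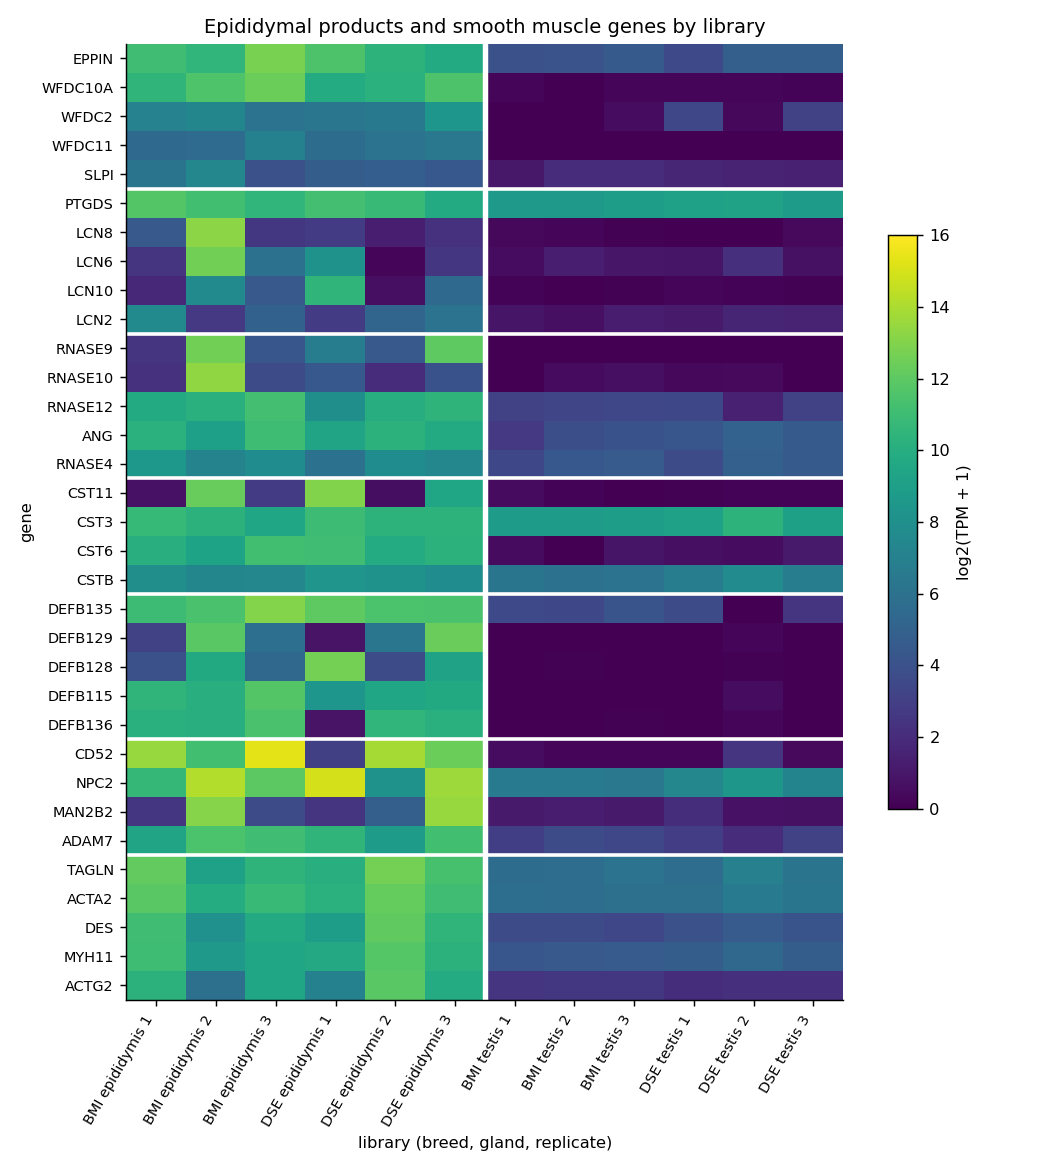
Levels of secreted products of the epididymis and of smooth muscle genes as log2(TPM + 1) in each of the 12 libraries, grouped by family from protease inhibitors at the top to smooth muscle at the bottom. LCN8 and RNASE10 stand out in BMI epididymis replicate 2 (9677 and 10294 TPM), NPC2 and CST11 in DSE epididymis replicate 1 (32204 and 8045 TPM), and PTGDS and CST3 are seen in all libraries of both glands.

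Several families have a member of each gland. CRISP2, a testis protein that binds the sperm tail and acrosome, had 610, 1883 and 2487 TPM in testis and 0, 1.94 and 24.2 TPM in epididymis (log2 fold change 8.95 ± 0.60), and CRISP1, its secreted relative, had 21.3, 1516 and 2759 TPM in epididymis and at most 0.296 TPM in testis (-9.60 ± 0.92). ADAM2, a sperm surface protein, had 24.5, 101 and 144 TPM in testis and at most 0.635 TPM in epididymis, and ADAM7 had 468, 1805 and 2780 TPM in epididymis and 3.01, 7.23 and 12.1 TPM in testis. LDHC, PGK2, GAPDHS and ATP1A4, forms particular to sperm, had medians of 232, 380, 502 and 179 TPM in testis and of 0.0851, 0.146, 15.5 and 0.680 TPM in epididymis. Of their somatic relatives, GAPDH was higher in epididymis (-1.25 ± 0.24), a call lost within DSE (-0.89, adjusted p 0.103 by limma), and LDHA and PGK1 were not called. SPINK2, an acrosin inhibitor of spermatids, was called higher in testis with 619, 2034 and 2167 TPM against 186, 744 and 1504 TPM (1.5 ± 0.50, adjusted p 0.0170 by limma), and within DSE its log2 fold change was 0.21 and not called.

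Transcripts of spermatid genes were listed in the epididymis libraries at a small and uneven level. As a share of the mean over testis libraries, mean epididymis levels were 0.324% for PRM1, 0.330% for PRM2, 0.305% for TNP1, 0.324% for ODF1, 0.303% for CRISP2 and 0.378% for OAZ3. These shares rested on BMI epididymis replicate 2, since without it, an alternative chosen after seeing the data, they were 0.0996% for PRM1, 0.138% for PRM2, 0.166% for TNP1, 0.0936% for ODF1, 0.0908% for CRISP2 and 0.182% for OAZ3. Over the Leydig cell genes higher in testis with at least 50 TPM there, the shares ran from 0.00337% for CYP17A1 to 7.82%, with a median of 0.113%. Spermatid chromatin genes chosen in the same way had a median of 0.289%. A call higher in testis was part of both choices, so low shares in epididymis were in part fixed by it, and the medians are descriptions. PRM1 had 744 TPM in BMI epididymis replicate 2, 112 TPM in DSE epididymis replicate 1, 77.9 TPM in BMI epididymis replicate 1, 49.5 TPM in DSE epididymis replicate 3, 16 TPM in BMI epididymis replicate 3 and 1.06 TPM in DSE epididymis replicate 2. TNP1 followed the same order of libraries, from 156 TPM to 0. Of 23 spermatid chromatin and flagellum genes with a testis mean of at least 100 TPM, 21 were highest in BMI epididymis replicate 2, and 11 were lowest in DSE epididymis replicate 2 and 9 in BMI epididymis replicate 3.

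The median share of the testis mean in BMI epididymis replicate 2 was 1.07% over 8 spermatid chromatin genes, 1.38% over 20 flagellum genes and 1.13% over 17 acrosome genes. It was 0.676% over 7 meiosis and 0.769% over 6 piRNA genes, and 0.0875% over 11 Leydig cell genes. In 3 of the 6 libraries the order was the opposite, since the Leydig median was above that of spermatid chromatin in BMI epididymis replicate 3 (0.0372% against 0.0193%), DSE epididymis replicate 2 (0.296% against 0%) and DSE epididymis replicate 3 (0.11% against 0.0478%). In DSE epididymis replicate 1, meiosis genes had the highest of these medians, 0.938%, against 0.237% for spermatid chromatin. The same BMI library had the highest levels of LCN8, RNASE10 and GPX5 and the lowest smooth muscle sum, given above. The source of this RNA was not tested.

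**Figure D5:**
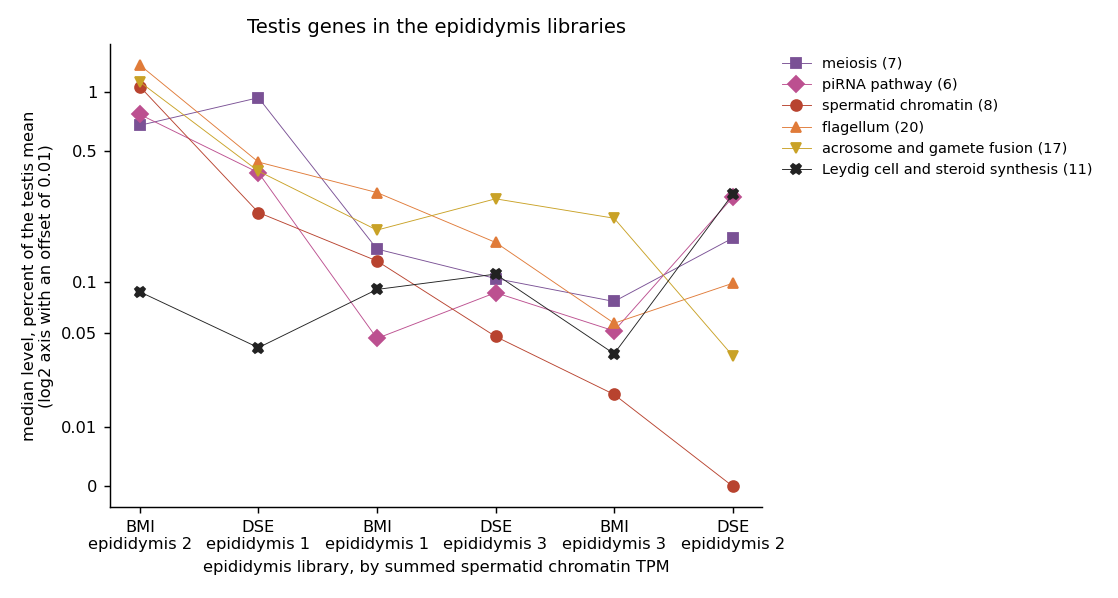
Median level of 6 lists of testis genes in each epididymis library, as percent of the mean over testis libraries (log2 axis with an offset of 0.01), with the number of genes in parentheses. Libraries are ordered by summed spermatid chromatin TPM. Spermatid lists fall from above 1% in BMI epididymis replicate 2, and Leydig cell genes stay between 0.0372% and 0.296%.

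Across all 974 testis-higher genes with at least 100 TPM in testis, at no overlap between the glands, 614 had at least 1 TPM in every epididymis library and 60 in none. BMI epididymis replicate 2 was the highest epididymis library for 445 of the 974. The median share of the testis mean over all 974 was 6.64% in BMI epididymis replicate 1, 6.37% in BMI epididymis replicate 2 and 4.08% to 5.83% in the others. Some germ cell genes stood above the spermatid share. ACRBP had 4.96% of its testis mean, DPY19L2, a protein of acrosome attachment, 9.56%, GPX4 21.5% and CATSPER2 23.3%. ACRBP did not follow PRM1, with 1.88 TPM in DSE epididymis replicate 1 and 47.7 to 79.8 TPM in 3 other libraries.

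In the opposite direction, 404 epididymis-higher genes had at least 100 TPM in epididymis with no overlap, and 330 of them had at least 1 TPM in every testis library and 50 in none. DSE testis replicate 2 was the highest testis library for 280. Over all 404 genes the median share of the epididymis mean was 21.1% in that library and 12.3% to 14.8% in the other testis libraries. The members of the lists that were called higher in epididymis and had at least 50 TPM there were then taken, so that a low share in testis was in part fixed by the choice. Their median share of the epididymis mean was 0.00398% for 9 beta-defensins, 0.106% for 14 fluid proteins, 0.126% for 5 lipocalins, 0.657% for 5 RNases and 0.753% for 5 WFDC and Kunitz inhibitors, and single members reached 23.4% among lipocalins and 49.4% among fluid proteins. By library, the beta-defensin median was 0.0126% in DSE testis replicate 2 and 0 in every other testis library. Secreted proteins that were not called, such as DEFB119 and CLU, were abundant in testis. EPPIN had 10.7 to 27.8 TPM in every testis library. The 4 cystatins had a median of 22.4%, which no member was near. CST11 had 0.00603% and CST6 0.0426%, whereas CSTB with 44.8% and CST3 with 45.6% were expressed in both glands. By library the cystatin median was 44.8% in DSE testis replicate 2 and 14% to 21% in the other testis libraries. Epithelium and smooth muscle genes had medians of 1.11% and 2.13%.

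Genes at a like level in both glands were taken as those with at least 10 TPM in all 12 libraries and a 95% confidence interval of the log2 fold change between -1 and 1. There were 1626 of them (8.62% of the genes tested), and they took 14.0% to 18.9% of TPM in testis and 14.9% to 16.8% in epididymis. Mitochondrial transcripts led them. COX3, a subunit of cytochrome oxidase, had 8843, 10412 and 20110 TPM in testis and 8130, 11004 and 15959 TPM in epididymis (log2 fold change -0.02 ± 0.23), and COX2, CYTB, ND2 and ND1 were likewise in the set. ACTG1, cytoplasmic actin, had 1149, 1477 and 1577 TPM against 1025, 1341 and 2566 TPM (-0.01 ± 0.22). UBB, polyubiquitin, PPIA, a prolyl isomerase, EEF1G, a translation factor, and GABARAP, of autophagy, completed the 10 most abundant. The same transcript was the most abundant in both glands for 1275 of the 1533 shared genes with at least 2 transcripts (83.2%), against 4550 of 5812 (78.3%) of tested genes with a mean of at least 10 TPM in each gland.

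Housekeeping genes were not all in this set. Of 75 genes of cytosolic ribosomal proteins, 51 were higher in epididymis, 1 was higher in testis and 23 were not called, with a median log2 fold change of -1.16. Their levels summed to 108666 to 167524 TPM in epididymis and 50006 to 72353 TPM in testis. RPS28 had 6184, 6623 and 7948 TPM in epididymis and 2101, 2241 and 4088 TPM in testis (-1.42 ± 0.16), and RPL35 lost its call with size factors (-0.89), within BMI (-0.94) and without BMI epididymis replicate 1 (-0.99). Reads of such genes can be shared with their many processed copies. EEF1A1, TMSB4X and ITM2B are a translation factor, an actin-binding peptide and a membrane protein. They were among the 10 most abundant in epididymis of the genes with a symbol called higher there without overlap. TMSB4X had 4359, 5051 and 5855 TPM against 372, 558 and 1064 TPM (-3.09 ± 0.19). TPM are shares of a library, with a total of 1000000 in each. In testis libraries spermatid chromatin genes summed to 25248 to 117015 TPM and Leydig cell genes to at most 68123 TPM. The median log2 fold change over all genes was 0.03, and the part of these shares in the ribosomal values was not tested.

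The difference between the glands itself differed between breeds for 47 genes (0.249% of those tested) at an adjusted p below 0.05 of the interaction by limma, with 1086 at an unadjusted p below 0.05. The count was 80 without the filter on low values, 31 without BMI testis replicate 1, 76 and 84 without DSE testis replicates 2 and 3, 22 without BMI epididymis replicate 3 and 24 without DSE epididymis replicate 3. Of these 47 genes 36 had no symbol. PACSIN1, an endocytosis adaptor, had 14.2 to 25.1 TPM in DSE testis and 0.0463 to 0.0896 TPM in BMI testis, with 0.353 to 1.31 TPM in epididymis of both breeds (log2 difference, DSE minus BMI, 4.62 ± 0.38, adjusted p 0.000997 by limma). NPTX2, a neuronal pentraxin, had 26.0 to 80.9 TPM in DSE testis and 0.235 to 0.562 TPM in BMI testis (4.94 ± 0.67). IFITM5, a membrane protein known from bone, had 100.1 to 116 TPM in BMI testis and 3.06 to 10.7 TPM in DSE testis, with at most 0.693 TPM in epididymis (-4.06 ± 0.57), and SAP25 had 2.64 to 4.75 TPM in BMI testis and was listed at 0 in the other 9 libraries. TDRD9, a helicase of the piRNA pathway, differed in epididymis, with 4.58 to 5.99 TPM in DSE and 0.0229 to 0.139 TPM in BMI (-3.19 ± 0.47, adjusted p 0.0157). Its adjusted p was 0.0504 to 0.0725 when BMI testis replicate 1, 2 or 3, BMI epididymis replicate 3 or DSE epididymis replicate 3 was left out. With a pseudocount of 0.1 TPM the adjusted p was 0.157 for NPTX2 and 0.553 for IFITM5.

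Full-length reads from PacBio Iso-seq, with 1 library per breed and gland and 231413 to 458697 reads each, gave a further readout without replicates. Of 2780 genes higher in testis with at least 20 reads over the 4 libraries, 2330 (83.8%) had more reads per library total in both testis libraries than in both epididymis libraries and 41 had the opposite order. Of 1705 genes higher in epididymis the numbers were 1441 (84.5%) and 5. CYP17A1 had 1501 and 1877 reads in BMI and DSE testis and none in either epididymis library, where a count of 0 allows up to 3 reads, for counting error in that library alone and if reads are independent molecules. PRM1 had 152 and 306 reads in testis, 0 in BMI and 1 in DSE epididymis. NPC2 had 375 reads in BMI and 2284 in DSE epididymis and 8 and 23 in testis, and GPX5 had 1705 and 288 in epididymis and none in testis. CLU had 2603 and 8173 reads in epididymis and 404 and 564 in testis. All deposited isoforms have at least 2 exons, and CD52 and COX3 had no reads in any of these libraries.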

How the data were processed

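Gene expression was measured by RNA-seq in 12 libraries of testis and epididymis. The deposited values are TPM per transcript, for which the authors aligned reads with STAR 2.7.10a and quantified 133722 transcripts of Ensembl models and Iso-seq isoforms with Salmon 1.9.0 on Sscrofa11.1, as named in the submitters' processing notes and the methods. The deposited Iso-seq table holds counts of full-length reads per isoform, which the authors clustered and collapsed over all libraries, and it was used without a test. The strand setting of quantification is not given in the sources used here, and TPM keep no read depth. Read totals per library accompany the paper and were not used here, so no counting interval was given for TPM.

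Transcript TPM were summed by gene. Genes with at least 1 TPM in at least 3 of 12 libraries entered limma 3.58.1 (R 4.3.3) on log2(TPM + 1), with gland and breed as terms and a trended variance. Errors are SE of the fitted change. The limma script was tested on simulated data. Tables were handled with Python 3.11.15 and pandas 2.3.3, and figures drawn with matplotlib 3.10.9. Gene names came from Ensembl for 15397 genes, from the deposited long-read table for 149, GPX5, LCN6, KRT5 and EEF1A1 among them, and for 1004 from overlap with RefSeq exons of at least 0.5 of the exon length.

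Members and gene lists were chosen with earlier results of these data known. The genes named are the 4 markers, on each side the 10 most abundant and the 5 with the largest change among called genes that do not overlap, up to 5 most abundant members of each list and all members of small families, the 10 most abundant shared genes and the 5 interactions with the smallest adjusted p. Other list members that were not called, or went against their list, were named after their values were seen. Alternatives were a pseudocount of 0.1, no filter, size factors, no trend, a replicate block, no breed term, each breed alone, a fit of all 30 RNA-seq libraries, and leaving out each library. Small RNA data were not used here. Some genes are not reported here, and counts of lists include them.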

Additional observations from a re-analysis of the deposited data

Results flagged for a closer look

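In 66 groups of 6 libraries, formed by list sums and marker genes in each gland, 17 held a library whose gap to the nearest other exceeded Dixon's 95% critical value as a share of the range. The rate of about 1 in 20 for that value holds for independent groups of normally distributed values. These groups are TPM on their raw scale and share libraries and genes, so no chance rate is given for them. Of the 17 groups, 7 were in testis and all 7 were DSE testis replicate 2. That library was low for summed spermatid regulators (226.2 TPM, others 573.1 to 777.9) and flagellum genes (3340 TPM, others 10499 to 12832). It was high for summed Leydig cell genes (68123 TPM, others 20541 to 34439), beta-defensins (541.6 TPM, others 244.7 to 340.5), cystatins (1496 TPM, others 572 to 813.9), steroid receptors and reductases (1035 TPM, others 272.9 to 515.5) and smooth muscle genes (319.5 TPM, others 157.4 to 212).

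BMI epididymis replicate 2 was far above the others for PRM1 (743.6 TPM, others 1.061 to 112.1) and for summed spermatid chromatin (1031 TPM, others 10.28 to 259.1) and flagellum genes (198.1 TPM, others 28.84 to 77.7). It was also high for summed lipocalins (18254 TPM, others 998 to 4118), the RNase A family (18338 TPM, others 1140 to 6722) and the paralogue pairs (17944 TPM, others 6609 to 9640). BMI epididymis replicate 3 was high for EPPIN (6966 TPM, others 870.4 to 3010) and the WFDC and Kunitz inhibitors (12615 TPM, others 2696 to 5032) and low for Sertoli cell genes (34.6 TPM, others 61.78 to 76.6). DSE epididymis replicate 1 was low for metabolic enzymes of germ cells (747.4 TPM, others 1636 to 2091).

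The difference between the glands differed between breeds, as DSE minus BMI on the log2 scale, by 4.618 for PACSIN1, -2.229 for SAP25, 4.944 for NPTX2, -4.061 for IFITM5 and -3.194 for TDRD9, each past the adjusted threshold of the interaction by limma.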

How the results depend on the processing

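Under 21 alternatives the genes higher in testis numbered 4701 to 6292 and those higher in epididymis 2917 to 4886, each within 1.5 times the count given. Shared genes moved to 573 within DSE. Leaving out 1 library gave 5544 to 5986, 3817 to 4665 and 1457 to 1852 genes in the same order and 22 to 84 genes for the interaction, which fell to 31 without BMI testis replicate 1, 22 without BMI epididymis replicate 3 and 24 without DSE epididymis replicate 3, and rose to 76 and 84 without DSE testis replicates 2 and 3. Without the filter it was 80. Within BMI the log2 fold changes of NPTX2 (-0.1038) and PACSIN1 (-1.015) had the opposite sign, and the cause was not tested. Size factors gave 6133 and 3777 genes, moving the median of all genes from 0.03 to 0.15.

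With the replicate number as a block, 5805 genes were higher in testis, 4243 in epididymis and 1680 were shared, and no call of a named gene changed. Same-numbered testis and epididymis libraries had correlations of their deviations of 0.01042 to 0.2479, above 0.1 in 4 of 6 pairs, against -0.2291 to 0.08534 for different numbers. In 5 of 6 testis libraries the same number gave the highest value, a hint of pairing from the data. The paper speaks of paired samples without saying what was paired, the labels tie no number to a boar, and not every pair was above 0.1, so the block was not used in the fit reported. Of 4032 values of 192 named genes, 3913 kept direction and call, 99 lost the call, 18 gained it and 2 reversed, and leaving out 1 library cost 11 genes their call. The list counts without DSE testis replicate 2 and with size factors were chosen after seeing the data.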

Other observations

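Genes without a symbol were among the most abundant of the duct. ENSSSCG00000005834 had a mean of 28420 TPM in epididymis and of 0.673 TPM in testis (log2 fold change -13.4, adjusted p 2.05e-09 by limma). ENSSSCG00000039858, which lies in the interval of the WFDC genes on chromosome 17 (47840050 to 47849306), had 61.1 to 5537 TPM in the epididymis libraries and at most 0.654 TPM in testis (log2 fold change -9.71).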
